A study of Homo sapiens with 7 samples.

Results

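In T-47D, an estrogen receptor-positive line of luminal breast cancer, 1506 wide H3K27me3 peaks lay outside every peak of the list labelled H2A.Z. They were chosen by 2 measured values, their width (2000 bp or more) and the absence of any base shared with a labelled H2A.Z peak, among H3K27me3 peaks on chromosomes 1 to 22 and X; neither value is a finding here. They were 61.0% (95% Wilson interval 59.1 to 62.9) of the 2468 wide H3K27me3 peaks, and 2.34% of the 64492 H3K27me3 peaks on these chromosomes. The other 962 wide peaks, which overlapped labelled H2A.Z, served as the comparison. The 2 sets are called H2A.Z-free and H2A.Z-overlapping peaks here, always in the sense of the list under that label.

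The study profiled T-47D cells, grown with serum to near confluence, by chromatin immunoprecipitation and sequencing (ChIP-seq). Antibodies were to H2A.Z, H3K27ac, H3K27me3, H3K36me3, H3K4me2 and H3K9me3, with 1 library for each, and the input library was not analysed here. Its stated purpose was to relate histone modification to gene expression. Each library gave 1 peak list with positions only, from 20451 peaks (labelled H3K9me3) to 64561 (H3K4me2), so read depth is unknown, no peak has a height, and no difference below could be tested over replicates. Intervals cover counting error with peaks taken as independent; neighbouring peaks share their surroundings, so the intervals are too narrow.

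As background, H3K27me3 is written by Polycomb repressive complex 2 through its subunit EZH2, is bound by Polycomb repressive complex 1, and spreads over silent genes and their surroundings. H3K27ac occupies the same lysine at active promoters and enhancers, and H3K36me3, laid down over transcribed gene bodies, hinders Polycomb repressive complex 2. H3K4me2 marks promoters and enhancers, active or poised, and H2A.Z is a histone variant known from both. Of 52188 peaks under the label H2A.Z, only 159 met an H3K4me2 peak and 24 an H3K27ac peak. In the list labelled H3K9me3, a heterochromatin mark, 35.3% of peaks overlapped H3K4me2. Both lists thus ran opposite to the background for their labels, and their names are used here as labels only. Were the 2 labels exchanged, the peaks chosen here would be those without H3K9me3, and the values for labelled H3K9me3 would be those of H2A.Z; this was not tested. Positions are hg19, counted from 1. Gene names and sequence are not given, since an hg19 annotation or genome was not used here, and the luminal identity of the line was not checked against marker genes for the same reason.

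The H2A.Z-free peaks were narrower than the H2A.Z-overlapping ones, a difference that the choice of peaks favours, since a wider peak has more room to meet another list. Their median width was 2466.5 bp (quartiles 2197 and 2973, widest 6839), against 2775 bp (2352 and 3642, widest 10993). The free share ran from 71.0% of the 1102 peaks under 2500 bp, through 60.5% of 605 from 2500 to 3000 bp and 51.9% of 478 from 3000 to 4000 bp, to 38.9% of 283 at 4000 bp or more. Just inside the width limit, 210 H2A.Z-free peaks measured 2000 to 2099 bp. Of these, 14.8% had an H3K4me2 peak within 5 kb, and their median distance was 134.6 kb to H3K27ac and 163.8 kb to H3K36me3. Just outside it, 222 peaks of 1900 to 1999 bp gave 10.4%, 145.3 kb and 178.2 kb.

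Free of labelled H2A.Z seldom meant far from it. The nearest labelled H2A.Z peak lay at a median of 5.81 kb (quartiles 2.03 and 15.96), within 1 kb for 187 of the 1506 and within 5 kb for 688 (45.7%). For the 56913 H3K27me3 peaks of any width that overlap none, the median was 9.47 kb, and 35.5% had one within 5 kb. Only 74 of the 1506 lay 100 kb or more from a labelled H2A.Z peak, 9 of them on chromosome 2. The shares within 1 kb and at 100 kb or more were not counted for the 56913. At the overlap limit itself, 10 H2A.Z-free peaks ended within 50 bp of a labelled H2A.Z peak, and 14 H2A.Z-overlapping peaks met one over less than 50 bp. The median overlap covered 20.9% of an H2A.Z-overlapping peak.

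Wide H3K27me3 peaks without labelled H2A.Z were spread very unevenly over the chromosomes. They were densest on chromosome 20 with 1.71 per Mb, chromosome 15 with 1.53 and chromosome 14 with 1.34, against 0.543 over the analysed span of 2773 Mb. Chromosomes 15 (126 peaks), 14 (118) and 20 (102) ranked with the much longer chromosomes 5 (134) and 7 (112). At the other end, chromosome X held 4, chromosome 18 held 5, chromosome 22 held 7 and chromosome 13 held 10. Chromosome 4 held 12 and chromosome 2, with 237.4 Mb of span, held 18, or 0.0758 per Mb. These 6 chromosomes were grouped after their low density of H2A.Z-free peaks was seen, so their share of those peaks is low by that choice. Together they made up 26.7% of the span and held 56 of the peaks (3.72%), with 9 H2A.Z-overlapping peaks. They held 8.59% of all H3K27me3 peaks, 17.2% of H3K4me2 peaks, 15.3% of H3K27ac peaks and 19.5% of H3K36me3 peaks.

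The share of wide H3K27me3 peaks that were H2A.Z-free differed between chromosomes, as it can from the rule alone: a chromosome with fewer labelled H2A.Z peaks offers fewer overlaps. All 34 wide peaks on chromosomes 2, 18, 22 and X were free, as were 10 of 11 on chromosome 13 and 15 of 17 on chromosome 19. Labelled H2A.Z numbered 1.76 peaks per Mb on chromosome 2 and 1.71 on chromosome 13. Chromosome 4, with 2.48 per Mb, had 12 free of 20 (60%, interval 38.7 to 78.1), near the share of all chromosomes. On chromosome 11, with 46.3 labelled H2A.Z peaks per Mb, 50.8% of 193 wide peaks were free (interval 43.8 to 57.7). On chromosome 12, with 35.1 per Mb, it was 51.6% of 215 (45.0 to 58.2). On chromosome 15 it was 72.4% of 174 (65.3 to 78.5), with 20.9 labelled H2A.Z peaks per Mb, and on chromosome 20 it was 64.2% of 159 (56.4 to 71.2), despite 46.7 per Mb. Across the 23 chromosomes the free share and the density of labelled H2A.Z had a Spearman's rho of -0.67, a relation that the rule favours. H2A.Z-free peaks per Mb had one of 0.86 with labelled H2A.Z peaks per Mb and of 0.95 with all H3K27me3 peaks per Mb. These are descriptions of points that share the same libraries.

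**Figure D1:**
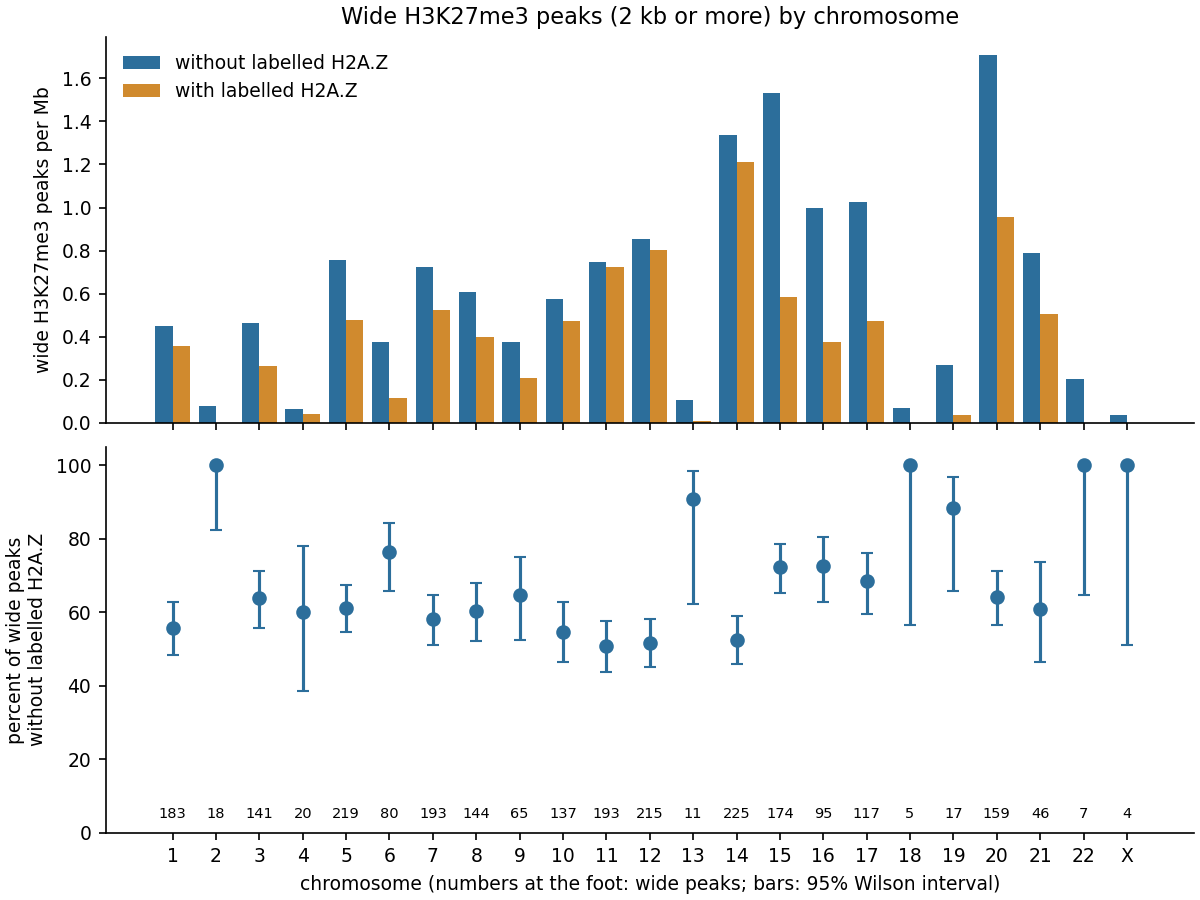
Wide H3K27me3 peaks by chromosome: bars give peaks per Mb of analysed span without and with labelled H2A.Z, and points the percentage without it with its 95% Wilson interval. Chromosomes 14, 15 and 20 stand highest at 1.34 to 1.71 free peaks per Mb, and chromosomes 2, 18, 22 and X show no peak with labelled H2A.Z.

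Along the chromosomes the peaks leaned towards the ends of the stretch that holds listed peaks, and gathered in a few megabases. Such an end need not lie at the end of the chromosome itself. Within 5 Mb of the first or last peak of any list on a chromosome lay 323 of the 1506 (21.4%, interval 19.4 to 23.6). The H2A.Z-overlapping peaks gave 19.5% (17.2 to 22.2), all H3K27me3 peaks 14.1% and H3K4me2 peaks 10.6%. The fullest window of 1 Mb was chromosome 5 from 2000001 to 3000000, with 22 H2A.Z-free and 10 H2A.Z-overlapping peaks. The next were chromosome 1 from 245000001 to 246000000 with 13 and chromosome 12 from 114000001 to 115000000 with 12. Windows with 5 or more numbered 80 of the 631 that held any, and contained 37.0% of the peaks. These windows were picked after their counts were seen.

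Joined over gaps of up to 20 kb, the H2A.Z-free peaks formed 1245 units, of which 1041 were single peaks and 204 were domains of 2 or more. Domains held 465 of the 1506 peaks, 30.9% (interval 28.6 to 33.3). The H2A.Z-overlapping peaks, joined alone, gave 132 domains with 307 of 962 peaks, 31.9% (29.0 to 34.9). The sets differ in size, and a larger set has more chances of neighbours within 20 kb, so these shares do not rank their clustering. Of the 204 domains, 159 had 2 peaks and 45 had 3 or more, among them 6 with 4, 1 with 5 and 1 with 7. Of the 132 H2A.Z-overlapping domains, 10 had 4 or more. The median span was 14.7 kb (quartiles 8.47 and 22.2), and the peaks covered a median of 40.4% of it (29.9 and 71.7). For H2A.Z-overlapping domains the span was 14.04 kb and the covered share 53.1% (32.9 and 86.9). Their peaks are also wider, which the choice of peaks favours, and the part of width in the covered share was not tested. Of the 261 gaps inside domains, 20 were contacts or overlaps between listed peaks, 12 were of up to 1 kb, and 100 were of 10 to 20 kb.

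A minority of H2A.Z-free peaks lay among H2A.Z-overlapping ones. An H2A.Z-overlapping wide peak lay within 20 kb of 298 H2A.Z-free peaks (19.8%, interval 17.9 to 21.9), and 10 touched or overlapped one. Conversely, an H2A.Z-free peak lay within 20 kb of 31.2% of H2A.Z-overlapping peaks (28.3 to 34.2). When all 2468 wide peaks were joined together, 234 of 464 domains held both kinds, 153 held only H2A.Z-free peaks and 77 only H2A.Z-overlapping ones. The mixed domains contained 330 H2A.Z-free peaks (21.9%) and the purely free ones 341 (22.6%), while 835 had no other wide peak within 20 kb. Mixed domains were longer, with a median span of 19.8 kb against 13.3 kb for purely free domains. The longest reached 133.6 kb with 11 peaks, against 45.3 kb for the longest purely free one; a domain of more peaks has more chances to hold both kinds.

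**Figure D2:**
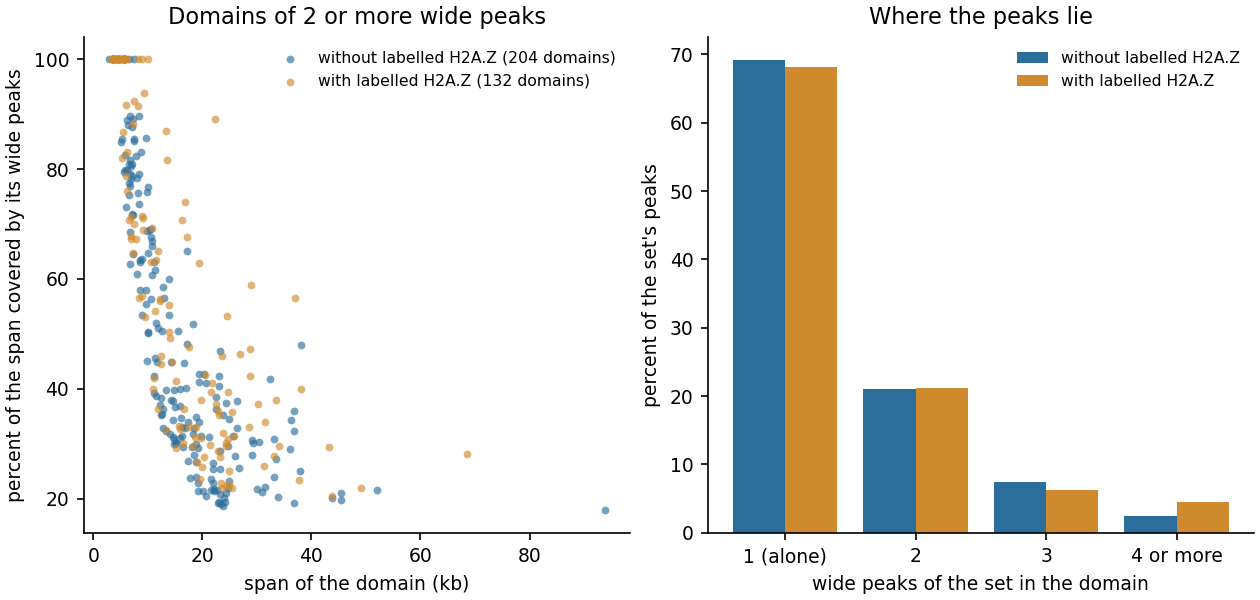
Left, each point is a domain of 2 or more wide H3K27me3 peaks, placed by its span (kb) and by the percentage of it that these peaks cover; right, the percentage of each set's peaks by domain size. The 204 domains without labelled H2A.Z mix with the 132 with it, the longest at 93.8 kb and 68.6 kb.

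The longest domain lay on chromosome 5 (2384412 to 2478218, 93.8 kb) and also had the most peaks. Its 7 H2A.Z-free peaks, each 2031 to 2818 bp wide, covered 17.9% of the span. In all it held 28 H3K27me3 peaks over 39.2% of the span, 2 of them wide with labelled H2A.Z. Inside were 5 labelled H2A.Z peaks and no peak of H3K4me2, H3K27ac, H3K36me3 or labelled H3K9me3. The nearest H3K4me2 was 45.2 kb away, and H3K27ac and H3K36me3 were 261.4 and 264.4 kb away.

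The domain with the next most peaks was also on chromosome 5, 36.8 kb from 1912143 to 1948961. Its 5 H2A.Z-free peaks were 2209 to 2584 bp wide, and neither a labelled H2A.Z peak nor any other list met it. H3K4me2, H3K27ac, H3K36me3 and labelled H3K9me3 all had their nearest peak 28.1 to 31.8 kb from its ends. Of the domains with 4 peaks, the longest lay on chromosome 15 (61371930 to 61424023, 52.1 kb), with 19 H3K27me3 peaks, 1 labelled H2A.Z peak and H3K27ac and H3K36me3 615.9 and 604.5 kb away. On chromosome 12 (114132781 to 114178119, 45.3 kb), 4 peaks shared the domain with 1 H3K4me2 peak, which lay 0.97 kb from one H2A.Z-free peak and 1.16 kb from the next. On chromosome 14 (94036895 to 94073688, 36.8 kb) 4 peaks of 2020 to 4430 bp stood with 5 labelled H2A.Z peaks, 1 H3K4me2 peak and 1 labelled H3K9me3 peak. By length, the remaining ones were on chromosome 7 (28394887 to 28440275, 45.4 kb) and chromosome 20 (58102197 to 58146006, 43.8 kb), with 3 peaks each. The chromosome 20 domain held 9 labelled H2A.Z peaks between its H2A.Z-free ones. None of these 7 domains held an H3K27ac or H3K36me3 peak.

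Among domains of 3 or more peaks the densest was on chromosome 14 (73303196 to 73311666), where 3 H2A.Z-free peaks of 2210 to 3272 bp covered 89.7% of 8.47 kb. It was followed by chromosome 5 (3188398 to 3197097, 83.0%), chromosome 15 (73788499 to 73798575, 76.7%) and 2 domains on chromosome 10 (7762695 to 7773322, 67.7%, and 15377177 to 15394328, 65.1%). In the chromosome 14 and chromosome 15 domains, 2 of the 3 listed peaks overlap each other, so they are not separate stretches. None of these 5 domains held a peak of another list, and H3K4me2 lay from 4.87 kb (chromosome 14) to 95.1 kb (chromosome 15) away.

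**Figure D3:**
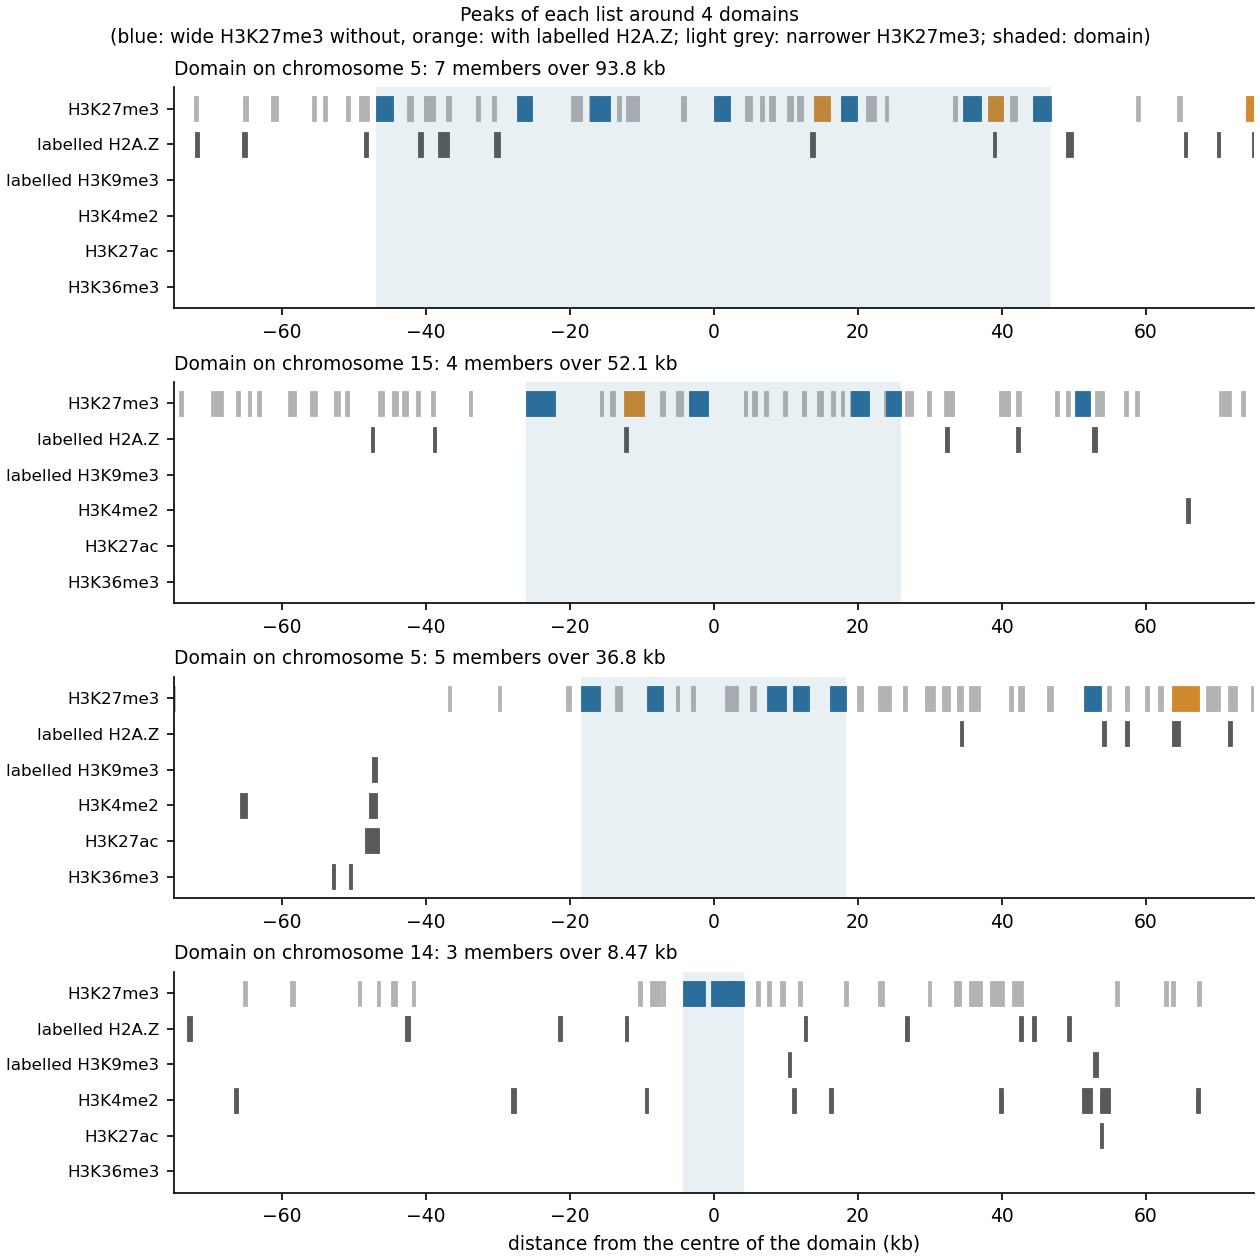
Peaks of all 6 lists within 75 kb of the centre of 4 domains, in kb from the centre: the longest 2 (chromosomes 5 and 15), the one with 5 peaks (chromosome 5) and the densest (chromosome 14). Blue blocks are wide H3K27me3 peaks without labelled H2A.Z, orange with it and light grey narrower H3K27me3 peaks, and no H3K4me2, H3K27ac or H3K36me3 block lies inside a shaded domain.

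The single widest H2A.Z-free peak was on chromosome 17 (77276745 to 77283583, 6.84 kb), 9.71 kb from labelled H2A.Z and 18.3 kb from H3K4me2. It lay 200.6 kb from H3K27ac and 193.2 kb from H3K36me3. Chromosome 6 had the next (27188884 to 27195558, 6.68 kb), 8.34 kb from H3K4me2 and 23.6 kb from H3K27ac. Those on chromosome 14 (36681946 to 36688532, 6.59 kb) and chromosome 20 (57340046 to 57346480, 6.44 kb) were 53.2 and 68.8 kb from H3K4me2. The chromosome 20 peak ended 0.18 kb from a labelled H2A.Z peak and overlapped a wide H3K27me3 peak that has labelled H2A.Z. The widest on chromosome 5 (57779096 to 57785518, 6.42 kb) lay 22.5 to 26.97 kb from H3K4me2, H3K36me3 and H3K27ac. Of the H2A.Z-overlapping peaks, the widest 3 were 9.48 to 10.99 kb wide and 17.2 to 28.5 kb from H3K4me2: one lay on chromosome 11 (45646459 to 45657451), another on chromosome 10 (6979884 to 6989717), the last on chromosome 9 (140885128 to 140894606).

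Nearly every H2A.Z-free peak sat among other H3K27me3 peaks, most of them narrow. Another H3K27me3 peak of any width lay within 5 kb of 1400 of the 1506 (93.0%), against 94.3% of H2A.Z-overlapping peaks. The median gap to the next one was 1.19 kb, against 1.08 kb. These values were not computed for all H3K27me3 peaks. The median number of others within 20 kb of an H2A.Z-free peak was 8 (quartiles 6 and 10). For H2A.Z-overlapping peaks it was 9 (6 and 11), and for all H3K27me3 peaks 6 (3 and 9). When all H3K27me3 peaks were joined over gaps of up to 20 kb they made 10431 blocks. The H2A.Z-free peaks fell in 813 of these, and 7 of them had a block to themselves. The block around an H2A.Z-free peak had a median span of 177.5 kb (79.8 and 354.2), around an H2A.Z-overlapping peak 229.9 kb (119.3 and 436.6), and around any H3K27me3 peak 92.6 kb. At an end of its block lay 8.30% of H2A.Z-free peaks (7.01 to 9.80) and 5.61% of H2A.Z-overlapping ones (4.33 to 7.25). Blocks with only H2A.Z-free wide peaks numbered 516, with a median of 15 H3K27me3 peaks over 70.4 kb. The 297 blocks with both kinds had 45 over 201.0 kb.

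The block with the most H2A.Z-free peaks ran over 840.9 kb of chromosome 5 (1893565 to 2734433), across the chromosome 5 domains of 7 and of 5 peaks above. It contained 211 H3K27me3 peaks, of which 26 were wide and free and 6 wide with labelled H2A.Z, and 13 H3K4me2 peaks. Next came chromosome 7 (3261023 to 4552807, 1292 kb) with 13 free and 19 overlapping peaks. The block on chromosome 17 (71426547 to 72198755) had 13 free and 6 overlapping, and that on chromosome 1 (245278400 to 245822739) had 13 and 4. The blocks were examined after the smaller domains were seen.

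H3K4me2 was sparse at the edges of the peaks themselves and did not pile up there. Of the 1506 H2A.Z-free peaks, 221 had an H3K4me2 peak within 5 kb (14.7%, interval 12.98 to 16.6), where the share of all H3K27me3 peaks was 12.3%. With the labelled H2A.Z list left unused, all 2468 wide peaks gave 13.3% (12.05 to 14.7). Overlaps numbered 36 (2.39%, 1.73 to 3.29; 1.2% of all H3K27me3 peaks) and 83 lay within 1 kb (5.51%; 3.36% of all). Within 100 kb there were 1389 (92.2%, and 88.4% of all). By comparison, 18.7% of the analysed span lies within 5 kb of H3K4me2 and 81.9% within 100 kb. The share of H2A.Z-free peaks was thus below that of the span at 5 kb and above it at 100 kb. Wider peaks have more room for an overlap. Of the 37 overlapping pairs, 17 crossed an edge of the H3K27me3 peak and 20 lay wholly inside it. Among H2A.Z-free peaks that overlapped none, 177 had H3K4me2 within 5 kb on a single side and 8 on both.

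Averaged over zones, coverage by H3K4me2 was higher in each zone farther out from the H2A.Z-free peaks, with no maximum at the edge. Within zones it fluctuated, with 0.977% from 0.5 to 1 kb and 0.743% from 3 to 4 kb. Inside the H2A.Z-free peaks H3K4me2 covered 0.430% of the sequence, 0.226 times its share of the analysed span (1.90%). From the edge to 1 kb outside it covered 0.832%, or 0.438 times, from 1 to 5 kb 0.464 times, from 5 to 10 kb 0.557 times and from 20 to 30 kb 0.602 times. H2A.Z-overlapping peaks followed the same course slightly lower, at 0.160 times inside, 0.3998 times in the first kb and 0.526 times from 20 to 30 kb. At the outer ends of domains of 2 or more H2A.Z-free peaks it was 0.555 times in the first kb, 0.504 times from 1 to 5 kb and 0.735 times from 20 to 30 kb.

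**Figure D4:**
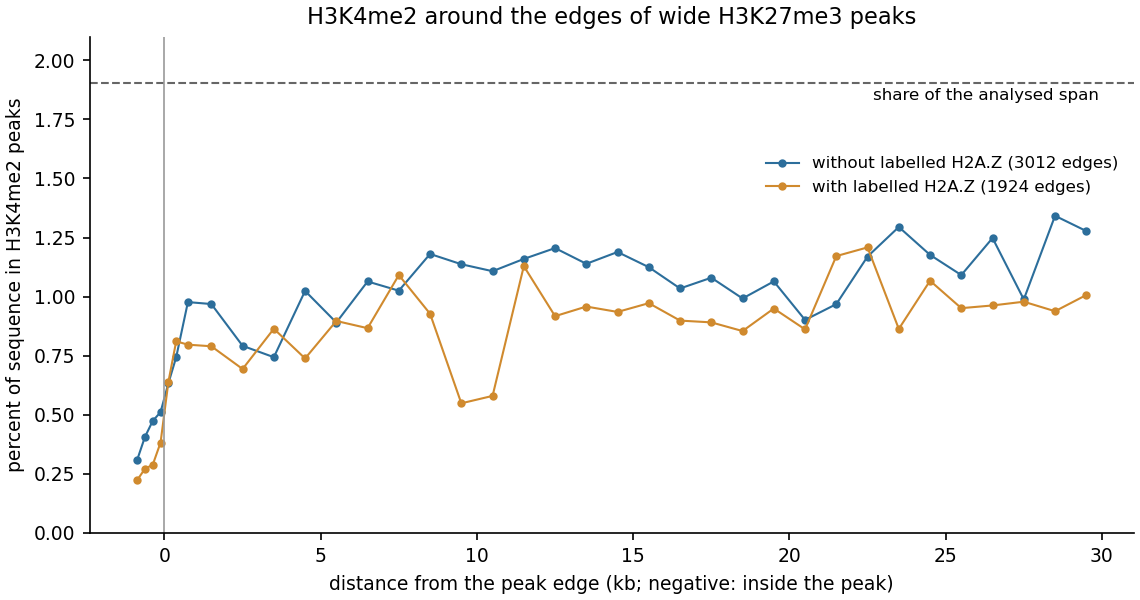
Percentage of sequence in H3K4me2 peaks against distance from the peak edge (kb, negative inside), for wide H3K27me3 peaks without (3012 edges) and with (1924 edges) labelled H2A.Z; the dashed line is the share of the analysed span, 1.90%. Inside the peaks the curves stay at 0.511% or less and 0.382% or less; outside they fluctuate, between 0.633 and 1.34% without labelled H2A.Z and between 0.548 and 1.21% with it, under the dashed line up to 30 kb.

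Just outside whole H3K27me3 blocks, coverage by H3K4me2 was higher than just outside the single peaks. The joining can favour this, since the 20 kb outside a block hold no H3K27me3 peak by construction. From 1 to 2 kb outside single H2A.Z-free peaks, H3K27me3 peaks covered 23.2% of the sequence. In the 516 blocks whose wide peaks were all H2A.Z-free, H3K4me2 was at 0.473 times its share of the span inside. In the 5 kb outside it was at 0.877 times and from 5 to 20 kb outside at 1.18 times. The blocks with both kinds of wide peak had 0.415, 1.27 and 1.56 times in the same zones, and the 197 with only H2A.Z-overlapping wide peaks 0.433, 0.781 and 1.14 times. An H3K4me2 peak reached into the 5 kb outside an end of 193 of the 813 blocks holding an H2A.Z-free peak (23.7%, interval 20.9 to 26.8), where 14.8% of all blocks had one. By kind it was 21.3% (18 to 25.1) of purely free blocks, 27.9% (23.1 to 33.3) of mixed and 19.8% (14.8 to 25.9) of purely overlapping ones, so the first and the last did not differ beyond their intervals. The share of all blocks is not a like comparison in size. Of the 10431 blocks, 9421 held no wide peak and had a median span of 3.19 kb, against 107.8 kb for the 813.

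H2A.Z-free peaks had H3K4me2 within 5 kb somewhat more often than H2A.Z-overlapping ones, where 108 of 962 did (11.2%, interval 9.38 to 13.4). The choice of peaks can favour this, since labelled H2A.Z peaks seldom meet H3K4me2, as given above. The difference was 3.45 percentage points (Newcombe interval 0.708 to 6.08). With the overlapping peaks weighted to the widths of the free ones it was 4.38 points, and weighted to their chromosomes, over the 17 with at least 5 overlapping peaks, 4.68. By width the shares were 13.4 against 10% under 2500 bp, 15.3 against 7.11% from 2500 to 3000 bp and 16.5 against 13.04% from 3000 to 4000 bp. At 4000 bp or more they were 17.3 against 16.8%. The free share was the higher on 13 of these 17 chromosomes. The difference was not seen with wide H3K4me2 peaks: for those above the median width of the H3K4me2 list, 5.31% of free peaks had one within 5 kb and the difference was -0.0933 points (-2.00 to 1.68). Without chromosome 12 it was 2.54 (-0.357 to 5.30) and without chromosome 17 2.74 (-0.0726 to 5.44), and within 1 kb it was 1.04 (-0.783 to 2.74). Among peaks of 3000 bp or more it was 2.12 (-3.04 to 7.36).

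The H3K4me2 peaks beside H2A.Z-free peaks seldom carried H3K27ac. There were 231 within 5 kb, and 5 of them overlapped H3K27ac (2.16%, interval 0.928 to 4.97), against 25.7% of all H3K4me2 peaks. Beside H2A.Z-overlapping peaks it was 5 of 121 (4.13%, 1.78 to 9.31), and beside H3K27me3 peaks of any width 6.52% of 4909. They were also short, with a median of 501 bp, the commonest H3K27me3 peak width too, against 628 bp for all H3K4me2 peaks; 60.6% were of 501 bp or less, against 48.0% of all. Those beside H2A.Z-overlapping peaks (57.0%) and beside all H3K27me3 peaks (55.9%) had the same median of 501 bp.

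H3K27ac lay about as far from the H2A.Z-free peaks as from the whole H3K27me3 list. None of the 1506 overlapped an H3K27ac peak (Wilson upper bound 0.254%; 0.0171% of all H3K27me3 peaks did), and none had one within 1 kb (0.0822% of all). Within 5 kb there were 10 (0.664%; 0.924% of all) and within 20 kb 78 (5.18%, interval 4.17 to 6.42; 6.15% of all). Within 100 kb there were 596 (39.6%; 38.5% of all). By comparison, 22.9% of the analysed span lies within 20 kb of H3K27ac. The median distance was 129.2 kb (interval 123.2 to 135.6; quartiles 66.2 and 227.8), against 144.8 kb (133.2 to 153.5) for H2A.Z-overlapping peaks and 135.1 kb for all H3K27me3 peaks. The nearest approaches were 1.46 kb on chromosome 15 (100460126 to 100464654), and 2.06 and 2.49 kb on chromosome 1 (184016182 to 184018205 and 203194506 to 203196617). The peak on chromosome 15 also had H3K4me2 and labelled H3K9me3 within 4.2 kb (4.13 and 4.17 kb).

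H3K36me3 was farther than H3K27ac at the median, as for the whole H3K27me3 list. No H2A.Z-free peak overlapped it or had it within 1 kb (upper bound 0.254%; overlap in 0.0062% and 1 kb in 0.0186% of all H3K27me3 peaks). Within 5 kb there were 4 (0.266%; 0.178% of all) and within 20 kb 52 (3.45%, 2.64 to 4.50; 3.3% of all), where 21.0% of the analysed span lies within 20 kb. Within 100 kb there were 485 (32.2%; 28.2% of all). The median distance was 170.2 kb (156.9 to 179.0; quartiles 80.4 and 300.05), against 191.8 kb (179.0 to 203.5) for H2A.Z-overlapping peaks and 187.9 kb for all. Closest, at 2.23 kb, was a peak on chromosome 14 (49598593 to 49601264). Others lay at 3.36 kb on chromosome 11 (61926089 to 61929076) and at 3.88 kb on chromosome 5 (475013 to 478412). The peak on chromosome 14 overlapped a labelled H3K9me3 peak, and that on chromosome 5 lay 0.65 kb from H3K4me2 and 98.8 kb from labelled H2A.Z.

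At the median, H2A.Z-free peaks were nearer to both marks than H2A.Z-overlapping ones. Their shares within 20 kb were higher too, but with differences whose intervals include 0. For H3K27ac the choice of peaks can favour the shorter distance, since labelled H2A.Z peaks seldom meet H3K27ac, as given above. How often they meet H3K36me3 was not counted, so whether the choice favours the shorter distance to that mark too was not tested. Within 20 kb, H3K27ac was found for 5.18 against 4.37% (difference 0.813 points, -0.981 to 2.48) and H3K36me3 for 3.45 against 2.60% (0.854 points, -0.602 to 2.19). Within 5 kb the shares were 0.664 against 0.624% and 0.266 against 0.312%. The median distance of the free peaks less that of the overlapping ones was -15.6 kb for H3K27ac (interval -26.2 to -2.34) and -21.5 kb for H3K36me3 (-39.3 to -6.02). They were nearer on 13 of 17 chromosomes for each mark. Among peaks of 3000 bp or more the differences were -5.74 kb (-29.1 to 13.7) and -3.03 kb (-39.7 to 20.9). With H3K27ac peaks above the median width of their list the difference for H3K27ac was -3.37 kb (-17.9 to 11.4), and with overlaps counted only from 50% of the shorter peak that for H3K36me3 was -17.3 kb (-34.2 to 1.84). At 4000 bp or more the order turned, with 137.1 against 122.6 kb for H3K27ac and 189.0 against 179.0 kb for H3K36me3. With chromosome 7 left out the difference was -8.51 kb for H3K27ac and -14.9 kb for H3K36me3, with intervals that include 0. For H3K27ac the interval also included 0 without chromosome 3 (-12.751 kb), 8 (-11.1 kb) or 10 (-10.6 kb), and for H3K36me3 without chromosome 10 (-17.1 kb).

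**Figure D5:**
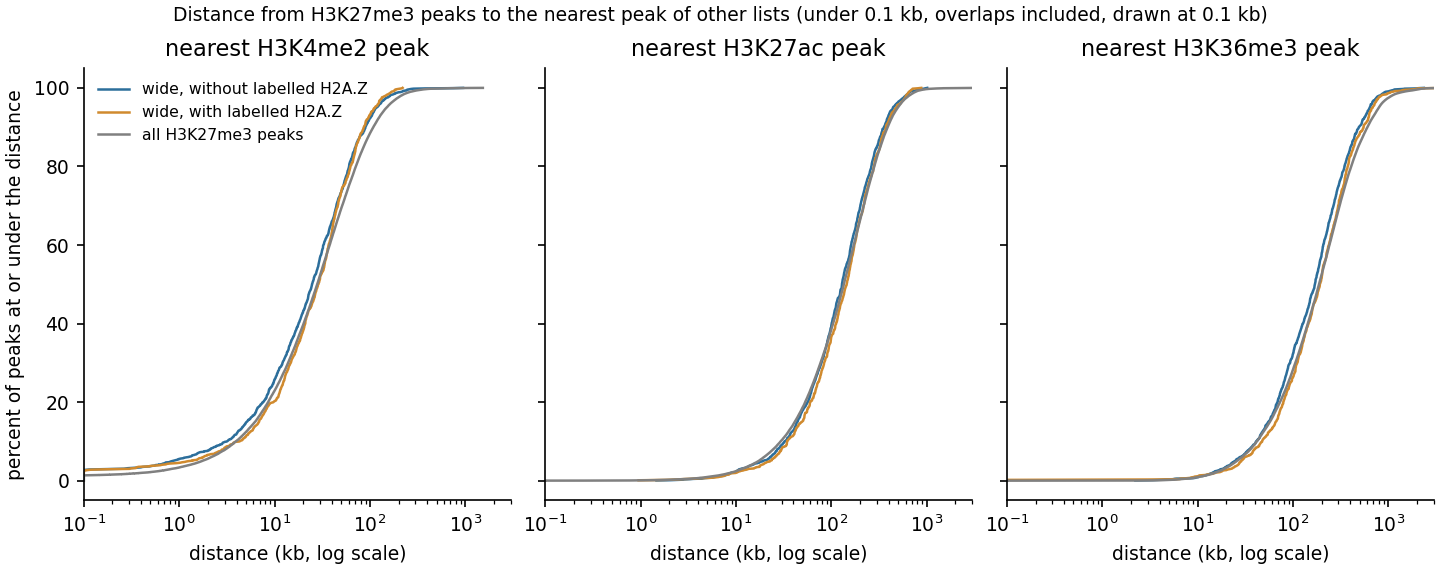
Cumulative percentage of H3K27me3 peaks by distance (kb, log scale) to the nearest H3K4me2, H3K27ac and H3K36me3 peak, for wide peaks without and with labelled H2A.Z and for all H3K27me3 peaks. The 3 curves run close together in each panel; medians without and with labelled H2A.Z are 24.7 and 28.9 kb, 129.2 and 144.8 kb, and 170.2 and 191.8 kb.

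Put together, 839 of the 1506 H2A.Z-free peaks (55.7%) had none of H3K4me2, H3K27ac and H3K36me3 within 20 kb, against 60.6% of H2A.Z-overlapping peaks and 58.6% of all H3K27me3 peaks. H3K4me2 was in that range of 650 (43.2%, interval 40.7 to 45.7), of 39.7% of all H3K27me3 peaks and of 44.9% of the analysed span. Only 8 had H3K27ac within 20 kb without H3K4me2, as did 0.803% of all H3K27me3 peaks. Nearer to H3K4me2 than to H3K27ac lay 93.0%, against 94.1% of H2A.Z-overlapping peaks and 92.1% of all. Of the 221 with H3K4me2 within 5 kb, 23 (10.4%) had H3K27ac within 20 kb, against 10.2% of 108 H2A.Z-overlapping peaks and 14.3% of 7960 H3K27me3 peaks chosen the same way.

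The surroundings differed between classes of distance to labelled H2A.Z, the list that the choice of peaks also used. The 688 H2A.Z-free peaks within 5 kb of a labelled H2A.Z peak had H3K4me2 within 5 kb in 11.8% (interval 9.57 to 14.4), a median of 149.3 kb to H3K27ac and one of 189.0 kb to H3K36me3. The 313 at 20 kb or more had 18.5% (14.6 to 23.2), 92.3 kb and 122.1 kb. The 505 in between had 16.2% (13.3 to 19.7), 129.2 kb and 170.0 kb. On these lists the values for the closest class were thus near those of the H2A.Z-overlapping peaks, and the farthest class was the nearest to the active marks. Labelled H3K9me3 within 5 kb was found for 6.98, 6.53 and 3.83% from the closest class to the farthest. The closest class was thus below the 9.88% of H2A.Z-overlapping peaks. Peaks of the labelled H2A.Z list seldom meet H3K4me2 or H3K27ac, as given above, so the classes themselves can favour the order seen for those lists. How often they meet H3K36me3 or labelled H3K9me3 was not counted, so the same could hold there and was not tested. The classes were not weighted to widths or chromosomes, and what set the order was not tested.

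Membership of a domain went with no steady order. H3K4me2 lay within 5 kb of 13.8% of the 1041 single peaks (11.9 to 16.1), 19.5% of the 318 in domains of 2 (15.5 to 24.2) and 10.2% of the 147 in domains of 3 or more (6.28 to 16.2). The median distance to H3K27ac was 128.6, 129.2 and 164.0 kb in the same order. Peaks of 1 domain share their surroundings, so the last class rests on 45 places.

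The list labelled H3K9me3 met H2A.Z-free peaks less often than H2A.Z-overlapping ones. The choice of peaks can favour this where labelled H2A.Z and labelled H3K9me3 peaks lie together, and how often they do was not counted. It overlapped 26 of the 1506 (1.73%, interval 1.18 to 2.52; 1.13% of all H3K27me3 peaks), against 39 of 962 (4.05%, 2.98 to 5.49). Within 5 kb it was 93 (6.18%, 5.07 to 7.51; 7.96% of all) against 95 (9.88%, 8.15 to 11.9), a difference of -3.70 points (-6.03 to -1.52). Within 1 kb of the H2A.Z-free peaks there were 34 (2.26%; 2.53% of all), within 20 kb 340 (22.6%; 24.4% of all) and within 100 kb 1020 (67.7%; 66.7% of all). The difference lay in the narrower peaks, with 5.50 against 14.1% under 2500 bp and 6.01 against 10.5% from 2500 to 3000 bp. From 3000 to 4000 bp it was turned, with 8.47 against 5.22%, and at 4000 bp or more it was 6.36 against 7.51%.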

How the data were processed

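ChIP-seq of 6 histone marks in T-47D cells was used, with 1 library each; the labels also list an input, which was not analysed here. The deposited lists hold 4 columns (chromosome, start, end, name) with no score. The builds hg19 and GRCh37 and the tools Bowtie2 (version 2.1.0) and HOMER (version 4.2) are named, with no role, per the submitters' processing notes. How peaks were called, whether the input served as background, and read depth are not given in the labels or headers.

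Only chromosomes 1 to 22 and X entered the analysis. Overlap meant 1 shared bp, and distances are gaps between nearest edges. The analysed span runs from the first to the last peak of any list on each chromosome, without 58 peak-free spans of 1 Mb or more. Shares have 95% Wilson intervals, their differences Newcombe intervals, and medians binomial order-statistic intervals, combined for differences in the same way. Distance, overlap and domain routines were tested on simulated data against direct enumeration. The regions named were the 5 widest free peaks, the 5 longest, fullest and densest domains, the 3 widest overlapping peaks and the nearest to H3K27ac and H3K36me3; windows and blocks were named after their values were seen. The peak set and the comparisons were chosen with earlier results of these data known. Alternatives varied the width, overlap rule, merging, gap, distance, chromosomes and weighting. Planned gene lists and markers were not run. Python 3.11.15, numpy 2.4.6, pandas 2.3.3 and scipy 1.17.1 were used.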

Additional observations from a re-analysis of the deposited data

Results flagged for a closer look

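Wide H3K27me3 peaks also occurred outside the chromosomes analysed. On unplaced or alternate contigs there were 38, on 13 contigs, and 24 of them overlapped labelled H2A.Z while 14 did not. The widest measured 12293 bp, above the 10993 bp of the widest peak on chromosomes 1 to 22 and X. They entered no comparison.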

How the results depend on the processing

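No paired analysis was possible because each mark has 1 library. A minimum width of 3000 bp left 358 H2A.Z-free peaks, 47.04% of wide peaks, with 15.6% of them in 27 domains, 16.8% with H3K4me2 and 7.82% with labelled H3K9me3 within 5 kb, and a median of 123.2 kb to H3K27ac. It reduced the difference in distance to H3K36me3 to -3.03 kb and reversed that for labelled H3K9me3 to 1.62 points. A minimum of 1500 bp gave 67.6% free and 45.4% in 574 domains. Counting only overlaps of 50% of the shorter peak gave 64.6% free. Counting labelled H2A.Z within 5 kb as overlap gave 33.1% free, 24.6% in 91 domains, 17.1% with H3K4me2, medians of 110.7 kb to H3K27ac and 150.7 kb to H3K36me3, and differences of -35.5 and -39.7 kb. Merging H3K27me3 within 1 kb gave 67.4% free and 46.5% in 765 domains.

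Gaps of 10 and 50 kb put 20.3 and 49.5% of free peaks in domains, and a gap of 10 kb gave H3K4me2 outside 19.8% of blocks. Within 1 and 20 kb, H3K4me2 was found for 5.51 and 43.2% and labelled H3K9me3 for 2.26 and 22.6%. With other lists limited to peaks above their median width, H3K4me2 was within 5 kb of 5.31% with the difference reversed to -0.0933 points, H3K27ac lay at 172.8 kb with the difference at -3.37 kb (-17.9 to 11.4), and H3K36me3 at 190.1 kb. Without use of labelled H2A.Z, 47.4% of all wide peaks lay in 464 domains and 7.62% were near labelled H3K9me3. The cause of these shifts was not tested.

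The sign of the difference held in 12 of 13 alternatives for H3K4me2, not counting single chromosomes left out, in 11 of 12 for labelled H3K9me3 and in 11 of 11 for each of H3K27ac and H3K36me3. Among alternatives with an interval, it included 0 in 3 of 11, 1 of 10, 2 of 9 and 2 of 9 in the same order of marks. The weightings, blocks, single chromosomes left out, alternatives for labelled H3K9me3 and the setting without labelled H2A.Z were chosen after seeing the data, apart from both weightings for H3K4me2. Depth is unknown, so absence from a list does not show absence of the mark.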
